A study of Homo sapiens with 45 samples.

Results

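The mRNAs of 10 genes that set the supply of active translation initiation factor eIF2 were described in HAP1 cells, a near-haploid human line derived from KBM-7. The genes were picked by symbol from a table of 60676 genes and all 10 were found: EIF2S1, EIF2S2 and EIF2S3, which encode the α, β and γ subunits of eIF2, EIF2B1 to EIF2B5, which encode the 5 subunits of eIF2B, and PPP1R15A and PPP1R15B, which encode the regulatory subunits of the eIF2 phosphatases. All 10 passed the filter on low counts, so none was left out of a test. Azacytidine (azaC, 5 uM), an analogue of cytidine found in both RNA and DNA of treated cells, or halofuginone (HF, 25 nM), which blocks prolyl-tRNA synthetase, had been given for 4 h, and other cells were untreated. The lines were eS31 K113R, RNF25 KO, GCN2 KO, ZNF598 KO and a double knockout labelled RNF25 GCN2 DKO, or DKO, each set against AAVS1, a line named after a site often edited as a neutral control. All 6 genotypes had azaC and untreated cells, and RNF25 KO, GCN2 KO and AAVS1 also had HF, which gave 15 groups of 3 libraries. Of the untreated eS31 K113R libraries, only the first is titled as eS31 K113R. The title and genotype label of the others name another protein change. Those libraries were placed in this group by their described column name, so their genotype is disputed. Both RNF25 and ZNF598 ubiquitinate ribosomal proteins when ribosomes stall, EIF2AK4 encodes the eIF2 kinase GCN2, and eS31 is the ribosomal protein encoded by RPS27A. The study is titled as work on how RNF25 limits the integrated stress response after azaC, and the comparisons ask how these mRNAs stand after each drug and in each line. Whether a line is 1 clone or a pool is not given in the sources used here.

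In its GTP-bound form eIF2 carries the initiator methionyl-tRNA to the small ribosomal subunit, and eIF2B exchanges the spent GDP for GTP so that eIF2 can act again. Stress-activated kinases, among them GCN2, phosphorylate the α subunit, and phosphorylated eIF2 blocks eIF2B, which lowers general translation while a few mRNAs such as ATF4 are translated more. PPP1R15A, also known as GADD34, and PPP1R15B, also known as CReP, each direct protein phosphatase 1 to eIF2 and reverse the block; in textbook accounts PPP1R15A is induced by stress as a feedback and PPP1R15B is made constitutively. Phosphorylation itself was not measured here, since the data are mRNA counts.

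The libraries held 1135498 to 2478875 counts, with a median of 1541554. A member had between 7 (PPP1R15A in untreated AAVS1 replicate 3) and 1829 (EIF2S2 in azaC-treated RNF25 KO replicate 2) counts in a library. A pair of libraries stood apart: azaC-treated RNF25 KO replicate 2 had the smallest mitochondrial share of the counts, 3.14% against a median of 7.08%, and the steepest rise of log2 level with transcript GC content, 0.347 per 10% GC against a median of 0.026, while untreated AAVS1 replicate 2 had the lowest such slope, −0.464. Of the edited genes, EIF2AK4 stood at 20.2 to 24.7 CPM (counts scaled to library size) in untreated GCN2 KO and 42.2 to 45.4 CPM in untreated AAVS1. In the libraries labelled as the double knockout it stood at 36.2 to 43.6 CPM untreated and 22.4 to 47.8 CPM after azaC, against 18.4 to 28.4 CPM in azaC-treated GCN2 KO and 43.7 to 57.0 CPM in azaC-treated AAVS1, so that its mRNA level does not settle the label. The azaC response of SESN2, a stress-response gene, was lower in these libraries than in RNF25 KO by −2.64 ± 0.25 (edgeR adjusted p = 2.25e-09), where 0.117% of tested genes were called. ZNF598 stood at 30.5 to 41.9 CPM in untreated ZNF598 KO and 55.9 to 74.9 CPM in untreated AAVS1, and RNF25 had 0 to 7 counts in any library, which checks nothing. Of the markers of the KBM-7 lineage, PTPRC, CD33, CD34, GATA1, SPI1, MPO and HBG1 had at most 1 count in a library and KIT at most 13. Of the mesenchymal markers, VIM had 390 to 1179 counts, COL1A1 4 to 39, COL1A2 at most 2 and PDGFRB at most 3. Of the epithelial markers, KRT18 had 35 to 168 counts, KRT8 at most 16, and EPCAM and CDH1 at most 2 each. Each RNA sample is a bulk lysate, in which fewer expressing cells and less RNA per cell cannot be told apart.

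The members covered a wide range of levels. Per kilobase of the longest principal transcript, the median of the 15 group means was 181 CPM per kb for EIF2S2 and 164 CPM per kb for EIF2S3, but 22.3 CPM per kb for EIF2S1, the subunit that is phosphorylated. The mRNAs for the 3 chains of one complex were thus present at unequal levels. The eIF2B subunits ran from 12.8 CPM per kb for EIF2B2 (β) through 22.2 for EIF2B1 (α), 26.0 for EIF2B4 (δ) and 26.6 for EIF2B5 (ε, the catalytic chain) to 34.1 CPM per kb for EIF2B3 (γ). The phosphatase subunits were lowest, with 10.3 CPM per kb for PPP1R15B and 7.88 CPM per kb for PPP1R15A. Between the highest and the lowest group mean, PPP1R15A differed 4.40-fold, EIF2S3 2.27-fold and EIF2S2 1.89-fold, and the other 7 1.24-fold (EIF2S1) to 1.58-fold (PPP1R15B). The median of this ratio over the 11078 tested genes was 2.02, and 98.2% of them had a larger one than EIF2S1.

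**Figure D1:**
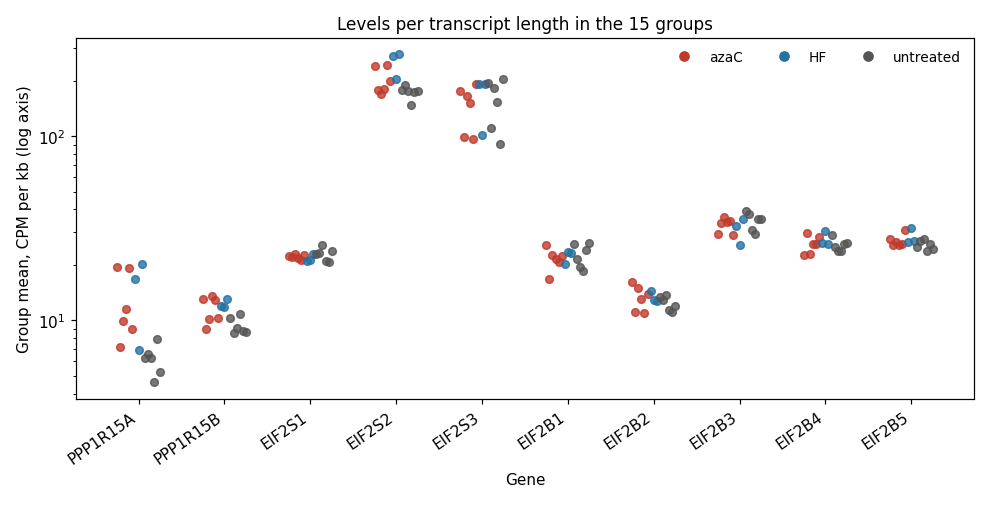
Group means of the 10 members in CPM per kb of transcript (log axis), 1 point for each of the 15 groups, coloured by treatment. EIF2S2 and EIF2S3 lie far above the others, and the points of PPP1R15A spread most, from 4.61 to 20.3 CPM per kb.

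Among the 33 comparisons, 14 of the 330 member values passed edgeR's quasi-likelihood test at a Benjamini-Hochberg adjusted p under 0.05: 4 of PPP1R15A, 5 of EIF2S2 and 5 of EIF2S3. The share of all tested genes called, in either direction, ran from 0% (azaC in GCN2 KO, among others) to 3.75% (HF-treated GCN2 KO against AAVS1). PPP1R15A and EIF2S2 carried every call that compared drug with no drug or drug with drug, and EIF2S3 was called only between genotypes. PPP1R15B, EIF2S1 and the 5 eIF2B subunits were not called in any comparison.

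PPP1R15A lies on chromosome 19 at 48872392 to 48876057 on the plus strand and PPP1R15B on chromosome 1 at 204403387 to 204411791 on the minus strand (GRCh38, GENCODE release 29), and neither shares exon bases with another annotated gene. Their upstream sequences are shown because PPP1R15A responded to the drugs and PPP1R15B was not called. Each runs 5′ to 3′ from 250 to 31 bases before the RefSeq transcription start on GRCh38.p14, over chr19:48872171-48872390 on the plus strand and chr1:204411848-204412067 on the minus strand. Capitals mark a full cAMP response element, TGACGTCA, in PPP1R15A, which begins 58 bases before the start, and a match to TGATGNAA, the core of the C/EBP-ATF response element bound by ATF4, in PPP1R15B, which begins 227 bases before the start.
PPP1R15A: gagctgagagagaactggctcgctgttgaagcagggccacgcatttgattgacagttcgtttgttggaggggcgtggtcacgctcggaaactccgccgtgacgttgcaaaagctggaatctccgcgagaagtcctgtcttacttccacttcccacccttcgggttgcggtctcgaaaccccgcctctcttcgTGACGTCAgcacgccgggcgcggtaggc
PPP1R15B: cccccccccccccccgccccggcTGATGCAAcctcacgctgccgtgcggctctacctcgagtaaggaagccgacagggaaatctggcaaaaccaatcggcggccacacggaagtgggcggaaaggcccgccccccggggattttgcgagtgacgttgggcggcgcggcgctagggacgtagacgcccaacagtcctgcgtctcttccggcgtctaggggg
On either strand of the window from 250 before to 50 after the start, TGACGTCA was found in 1.85% of 35116 promoters and TGATGNAA in 3.62%. The shorter TGACG, which TGACGTCA contains, was found in 24.6% of promoters, and among the 9 members with a promoter entry in PPP1R15A, PPP1R15B, EIF2B1, EIF2B2 and EIF2B3. No other member with an entry held either longer motif, and EIF2S2 had no entry. A match describes letters only.

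PPP1R15A mRNA was higher after azaC in RNF25 KO and after HF in RNF25 KO and AAVS1. In azaC-treated RNF25 KO it stood at 57.1, 51.4 and 31.1 CPM, against 12.1, 19.3 and 13.1 CPM in untreated RNF25 KO. The lowest azaC library lay above the highest untreated one, as for 5.98% of tested genes, and the log2 change was 1.64 ± 0.39 (SE, edgeR adjusted p = 0.0288). It was the 1 member of 10 that rose there, where 0.451% of the tested genes were called higher and 0.0181% lower. After HF, AAVS1 held 75.3, 33.0 and 36.5 CPM, against 21.5, 11.5 and 4.50 CPM in untreated AAVS1. These groups did not overlap either, like those of 7.29% of tested genes that were higher, and the log2 change of 1.98 ± 0.40 (edgeR adjusted p = 0.00163) was the largest drug change of any member. HF-treated RNF25 KO held 60.7, 34.7 and 24.0 CPM, against the same untreated libraries, a log2 change of 1.42 ± 0.39 (edgeR adjusted p = 0.0443). With EIF2S2, PPP1R15A made up the 2 of 10 members called higher by HF in each of these lines, against 1.06% of tested genes called higher and 0.487% lower in AAVS1 and 1.23% in RNF25 KO.

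Each of these calls was lost when some single library was left out. The azaC call in RNF25 KO was lost without untreated replicate 1, 2 or 3 or azaC replicate 1 or 2 (log2 change 1.48 to 1.88, edgeR adjusted p = 0.0506 to 0.219), and it was 1.55 (adjusted p = 0.154) without both libraries that stood apart. The HF call in AAVS1 was lost without HF replicate 1, the library at 75.3 CPM (1.53, adjusted p = 0.0634), and that in RNF25 KO without untreated replicate 1, 2 or 3 or HF replicate 1 or 2 (0.97 to 1.65, adjusted p = 0.0562 to 0.436).

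In the other lines PPP1R15A was not called after azaC in the main fit, which has no replicate block. With that block the eS31 K113R value passed the threshold, as given below. PPP1R15A values in azaC-treated eS31 K113R were 53.6, 49.2 and 35.02 CPM, against 14.5, 25.6 and 16.1 CPM in untreated eS31 K113R, a log2 difference of 1.27 ± 0.38 (edgeR adjusted p = 0.209). In azaC-treated ZNF598 KO they were 29.5, 30.4 and 22.2 CPM, against 9.31, 10.3 and 13.2 CPM in untreated ZNF598 KO (1.305 ± 0.41, adjusted p = 0.789). In neither line did the groups overlap, as was so of 5.6% of tested genes, higher after azaC, in eS31 K113R and 4.48% in ZNF598 KO. Azacytidine-treated AAVS1 held 36.3, 11.1 and 16.4 CPM, which overlapped untreated AAVS1 (0.79 ± 0.42, adjusted p = 0.99).

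GCN2 KO libraries had much the same PPP1R15A level in every condition. They stood at 20.8, 16.1 and 13.9 CPM after azaC and at 16.3, 16.6 and 16.4 CPM after HF, against 18.9, 17.3 and 10.9 CPM untreated. The log2 difference was 0.11 (95% interval −0.74 to 0.95) for azaC and 0.07 (−0.78 to 0.91) for HF, and the intervals do not show that the drugs had no effect. The RNF25 GCN2 DKO libraries held 25.9, 16.9 and 28.0 CPM after azaC, against 18.4, 14.7 and 11.4 CPM untreated (0.67 ± 0.40, edgeR adjusted p = 1). Under HF itself, PPP1R15A was lower in GCN2 KO than in AAVS1, by −1.53 ± 0.38 (adjusted p = 0.0103), but not past the threshold without AAVS1 HF replicate 1 (−1.08, adjusted p = 0.168). The difference between the HF responses of GCN2 KO and AAVS1 was −1.91 ± 0.58 (95% interval −3.08 to −0.74) and did not pass (edgeR adjusted p = 0.214). Of the 90 member values for differences in drug response, edgeR and limma-voom called 0 and DESeq2 called 1, and 3 had an unadjusted edgeR p under 0.05. Of all tested genes, edgeR called 0.00903% for the azaC response of GCN2 KO and likewise for that of eS31 K113R, and 0.0451% for that of the DKO, each against AAVS1.

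PPP1R15B, the constitutive partner, stood higher than PPP1R15A in CPM in each of the 15 groups by mean, but it was not called in any of 33 comparisons (2 at an unadjusted p under 0.05, and none in DESeq2 or limma-voom). Its values after HF in AAVS1 were 62.9, 79.2 and 61.6 CPM, against 39.6, 59.9 and 35.3 CPM in untreated AAVS1, a log2 difference of 0.58 ± 0.25 (edgeR adjusted p = 0.358). In azaC-treated eS31 K113R they were 56.8, 86.2 and 59.5 CPM, against 37.4, 54.8 and 44.5 CPM untreated (0.57 ± 0.26, adjusted p = 0.87). Neither pair of groups overlapped, and 7.29% of tested genes were likewise higher without overlap in HF-treated AAVS1 and 5.6% in azaC-treated eS31 K113R. Per kilobase, the ratio of PPP1R15A to PPP1R15B averaged 1.52 ± 0.50 in azaC-treated RNF25 KO, against 0.615 ± 0.108 in untreated RNF25 KO (SD, n = 3 each). It averaged 1.54 ± 0.46 in azaC-treated eS31 K113R against 0.891 ± 0.120 untreated, and 1.62 ± 0.90 in HF-treated AAVS1 against 0.632 ± 0.492 untreated. In HF-treated GCN2 KO it was 0.583 ± 0.023, against 0.811 ± 0.178 in untreated GCN2 KO. The mean level per kilobase of PPP1R15A exceeded that of PPP1R15B in 4 groups: azaC-treated RNF25 KO and eS31 K113R, and HF-treated RNF25 KO and AAVS1. In azaC-treated AAVS1 the ratio was 2, 0.343 and 0.703 in the 3 libraries, above 1 in replicate 1 alone.

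**Figure D2:**
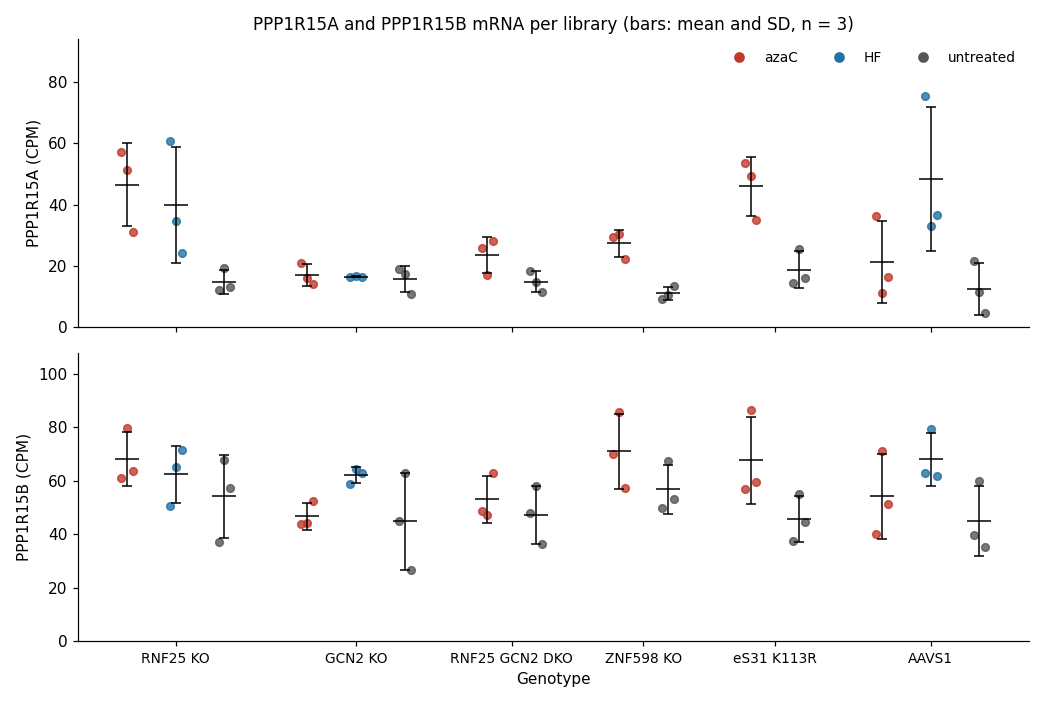
PPP1R15A and PPP1R15B in every library (CPM), by genotype and coloured by treatment, with bars for the mean and SD of 3 libraries. PPP1R15A reached 75.3 CPM in an HF-treated AAVS1 library and stayed between 10.9 and 20.8 CPM in all 9 GCN2 KO libraries, while PPP1R15B groups spread widely and mostly overlap.

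Of the eIF2 subunits, EIF2S2 (β, which binds the initiator tRNA complex together with γ and contacts eIF5 and eIF2B) was higher after HF in RNF25 KO and AAVS1. It stood at 709, 736 and 720 CPM in HF-treated RNF25 KO, against 479, 432 and 503 CPM in untreated RNF25 KO, and at 776, 717 and 723 CPM in HF-treated AAVS1, against 445, 467 and 481 CPM in untreated AAVS1. Every HF library of these lines lay above every untreated library of any line, the highest of which was GCN2 KO replicate 2 at 519 CPM. Within the line, 8.45% of tested genes were likewise higher without overlap after HF in RNF25 KO and 7.29% in AAVS1. The share that lay above the untreated libraries of all lines was not computed. The log2 change was 0.61 ± 0.12 in RNF25 KO (edgeR adjusted p = 0.00183) and 0.67 ± 0.12 in AAVS1 (adjusted p = 0.000496), each called with any 1 of the compared libraries left out. Both calls were lost with no filter on low counts and with only the libraries compared. After azaC EIF2S2 was called in eS31 K113R, with 668, 621 and 659 CPM against 390, 479 and 506 CPM untreated (0.50 ± 0.12, edgeR adjusted p = 0.0426). There 1 of 10 members rose, against 0.469% of tested genes called higher and 0.0451% lower. That call was lost without untreated replicate 1 or 2 or azaC replicate 1, 2 or 3 (0.40 to 0.54, adjusted p = 0.103 to 0.554), and with only the first untreated library, whose label alone is undisputed, the value was 0.74 (adjusted p = 0.077).

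In azaC-treated RNF25 KO, EIF2S2 stood at 593, 734 and 586 CPM, above every untreated library of that line, as 5.98% of tested genes were, without passing (0.44 ± 0.12, edgeR adjusted p = 0.139). The highest of these was replicate 2, a library that stood apart, and the value without it and the apart AAVS1 library was 0.33 (adjusted p = 0.79), while DESeq2 on all libraries called it (0.44, adjusted p = 0.00976). The azaC values were 0.30 in ZNF598 KO, 0.19 in AAVS1, −0.05 in the DKO and −0.09 in GCN2 KO. GCN2 KO after HF held 564, 550 and 504 CPM, against 484, 519 and 503 CPM untreated (0.10, 95% interval −0.15 to 0.35). Under HF, EIF2S2 was thus lower in GCN2 KO than in AAVS1 (−0.45 ± 0.12, adjusted p = 0.0244), a call that leaving out any 1 of the 6 libraries lost (adjusted p = 0.0545 to 0.128). The difference between the HF responses of these lines was −0.57 ± 0.18 (edgeR adjusted p = 0.239, and 0.0253 in DESeq2). Within AAVS1, EIF2S2 was also lower after azaC than after HF, at 476, 565 and 551 CPM against 776, 717 and 723 CPM (−0.48 ± 0.12, adjusted p = 0.0442, lost without any 1 of the 6 libraries, adjusted p = 0.0719 to 0.273). It was the 1 member of 10 called there, against 0.686% of tested genes called lower.

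EIF2S2 (chromosome 20, 34088298 to 34112332, minus strand) has processed copies that can take or lend reads. EIF2S2P3 held 4410 counts over all libraries and EIF2S2P4 held 4052, against 37501 for EIF2S2. After HF in AAVS1 the copies had log2 differences of 0.76 (EIF2S2P3, edgeR adjusted p = 0.102) and 1.75 (EIF2S2P4, adjusted p = 0.0739). Counting the copies with EIF2S2 gave 0.75 in AAVS1 (adjusted p = 0.000147) and 0.60 in RNF25 KO (adjusted p = 0.00362) after HF, and 0.51 after azaC in eS31 K113R, which no longer passed (adjusted p = 0.0531).

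EIF2S1 (α, the subunit that the kinases phosphorylate) varied least among group means, which ran from 92.5 CPM in untreated eS31 K113R to 115 CPM in untreated RNF25 GCN2 DKO, with single libraries from 73.7 to 133 CPM. It was not called in any of 33 comparisons by edgeR, DESeq2 or limma-voom, and none had an unadjusted p under 0.05. In HF-treated AAVS1 it stood at 83.0, 109 and 116 CPM, against 93.0, 133 and 91.8 CPM in untreated AAVS1, and the difference was −0.05. Of its exon bases, 4.76% overlap ATP6V1D on the opposite strand, and the strand setting of the counting is not given in the sources used here.

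**Figure D3:**
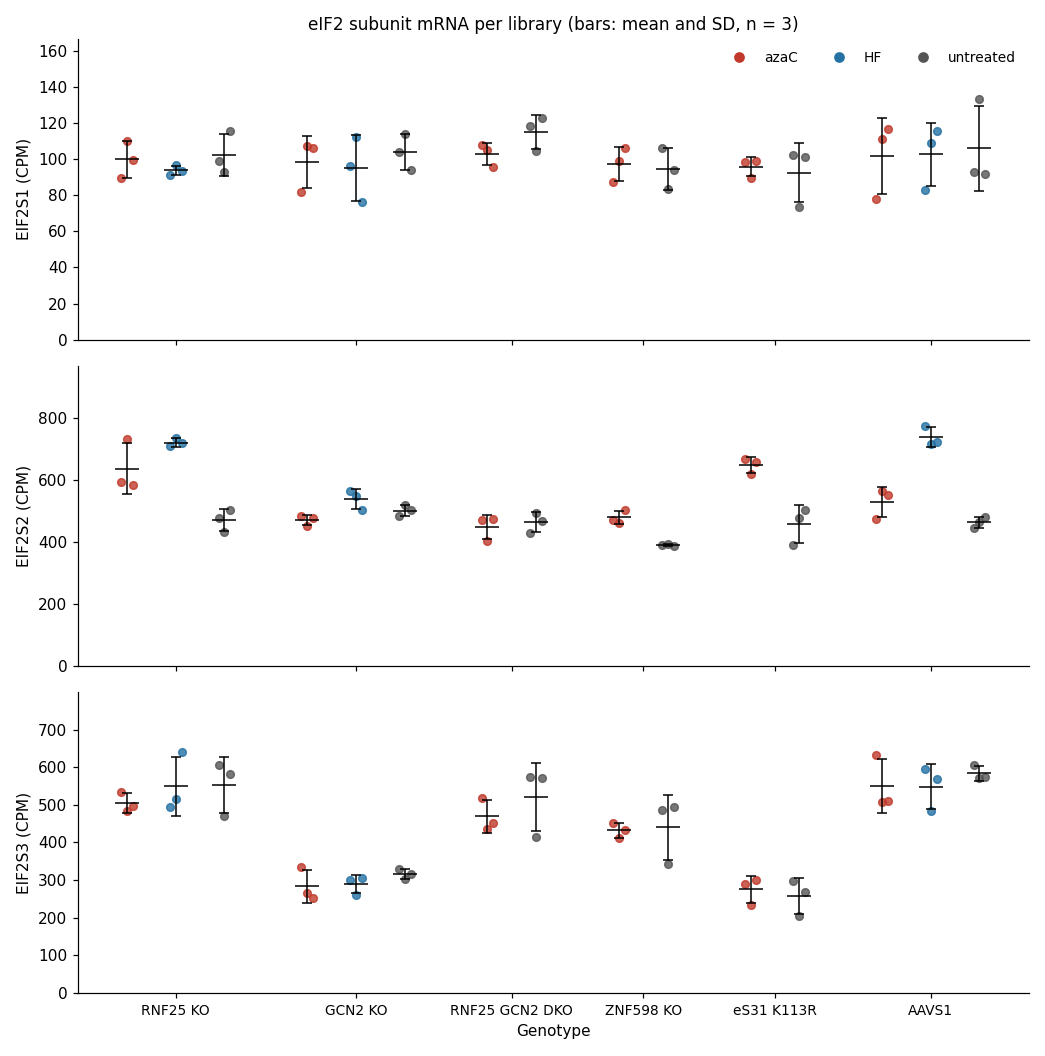
EIF2S1, EIF2S2 and EIF2S3 in every library (CPM), by genotype and coloured by treatment, with bars for the mean and SD of 3 libraries. EIF2S2 is highest in HF-treated RNF25 KO and AAVS1, at 709 to 776 CPM, and EIF2S3 is low in every GCN2 KO and eS31 K113R library, at 205 to 334 CPM, whatever the treatment.

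EIF2S3 (γ, the subunit that binds GTP) was not called after either drug in any line, with log2 differences of −0.16 to 0.10, but differed between lines. It stood at 297, 205 and 269 CPM in untreated eS31 K113R and at 330, 304 and 315 CPM in untreated GCN2 KO, against 606, 571 and 573 CPM in untreated AAVS1. The groups did not overlap in either line, as for 7.19% of tested genes lower in eS31 K113R and 6.42% in GCN2 KO, and the log2 changes were −1.18 ± 0.16 in eS31 K113R (edgeR adjusted p = 3.48e-06) and −0.88 ± 0.16 in GCN2 KO (adjusted p = 0.00092). It was the 1 member of 10 that fell in each, against 1.69% of tested genes called lower in eS31 K113R and 0.343% in GCN2 KO (2.87% and 1.05% in either direction). With only its first untreated library, eS31 K113R still gave −0.97 (adjusted p = 0.0279). In untreated ZNF598 KO the level was 485, 342 and 494 CPM (−0.41 ± 0.16, adjusted p = 0.36), and in untreated RNF25 KO and the DKO the log2 differences were −0.08 and −0.17. In RNF25 KO 1.62% of the tested genes were called, in the DKO 1.42% and in ZNF598 KO 0.93%, in either direction, and 0 of 10 members in each.

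The same order held under the drugs. After azaC, EIF2S3 stood at 291, 234 and 301 CPM in eS31 K113R and 334, 265 and 252 CPM in GCN2 KO, against 632, 506 and 511 CPM in AAVS1. These differences were −0.999 ± 0.16 (edgeR adjusted p = 5.58e-05) and −0.96 ± 0.16 (adjusted p = 0.000205), with 1 of 10 members lower in each against 1.88% and 0.506% of tested genes called lower (3.59% and 1.25% in either direction). After HF it stood at 301, 261 and 307 CPM in GCN2 KO, against 596, 483 and 567 CPM in AAVS1 (−0.92 ± 0.16, adjusted p = 0.000168). There 3 of 10 members were lower, with PPP1R15A and EIF2S2, against 1.84% of tested genes called lower (3.75% in either direction). Azacytidine-treated ZNF598 KO held 452, 412 and 433 CPM, below every azaC-treated AAVS1 library, as 6.82% of tested genes were, without passing (−0.35 ± 0.16, adjusted p = 0.639). In that comparison 0.677% of tested genes were called, and in azaC-treated RNF25 KO against AAVS1 2.26%, and 0 of 10 members in either.

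EIF2S3 is X-linked (chromosome X, 24054716 to 24077971, plus strand), and other X-linked genes were lower in the same lines. The median of 414 other tested X-linked genes was −0.86 in untreated eS31 K113R, where 146 of them were called lower, and −0.32 in untreated GCN2 KO, where 16 were. The autosomal medians were 0.03 and 0.01. In eS31 K113R the medians of 20 Mb stretches along the chromosome lay between −0.93 and −0.77, apart from −0.51 from 80 to 100 Mb, where only 14 genes were tested. In GCN2 KO they were −0.61, −0.65 and −0.60 over the first 60 Mb, where EIF2S3 lies, −0.29 from 60 to 80 Mb, and −0.25 to −0.14 beyond (14 genes from 80 to 100 Mb). EIF2S3 thus lay 0.32 below the median of the whole X in eS31 K113R and 0.56 below it in GCN2 KO, where 12.8% of the X-linked genes were lower still. It was closer to the median of its own stretch, from 20 to 40 Mb, in GCN2 KO, at −0.88 beside −0.65. In eS31 K113R it stood at −1.18 beside −0.77 for that stretch. In untreated RNF25 KO, DKO and ZNF598 KO the X-linked medians were 0.03, 0.06 and −0.01. EIF2S3 stood from these medians by −0.10, −0.23 and −0.40, and in ZNF598 KO 10.1% of the X-linked genes were lower still. The part of chromosome-wide differences in the level of EIF2S3 was not tested.

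**Figure D4:**
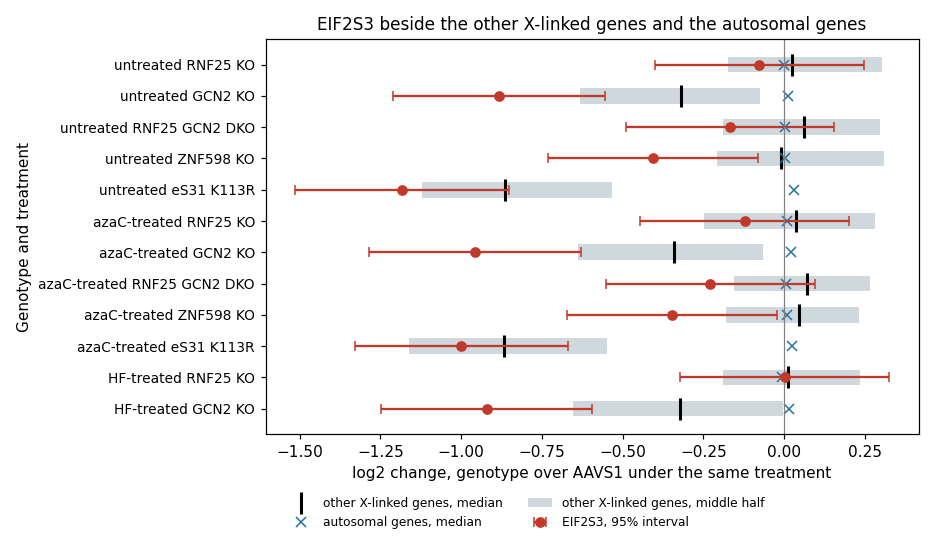
Log2 change of EIF2S3 (red point with 95% interval) for each genotype over AAVS1 under the same treatment, beside the median (black bar) and middle range (grey box, lower to upper quartile) of 414 other X-linked genes and the autosomal median (cross). The grey boxes lie left of 0 in the GCN2 KO and eS31 K113R comparisons. EIF2S3 lies left of the box in every GCN2 KO and ZNF598 KO comparison, in untreated eS31 K113R and in the azaC-treated DKO.

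The 5 subunits of eIF2B, the exchange factor that phosphorylated eIF2 blocks, were not called in any comparison. Over 5 genes and 33 comparisons, 0 of 165 values passed in edgeR, DESeq2 or limma-voom, with 3 at an unadjusted edgeR p under 0.05. Of all tested genes, edgeR called 0% to 3.75%, depending on the comparison, so 0 calls do not set these 5 genes apart. An unadjusted edgeR p under 0.05 was found for 280 to 1608 of the 11078 tested genes. Between treatments or lines, log2 differences ran from −0.55 to 0.38 for EIF2B3, −0.49 to 0.37 for EIF2B1, −0.34 to 0.28 for EIF2B4, −0.33 to 0.26 for EIF2B2 and −0.30 to 0.36 for EIF2B5. The widest was EIF2B3 (γ, which pairs with the catalytic ε chain) after HF in GCN2 KO, at 35.4, 55.3 and 37.3 CPM against 61.8, 75.5 and 51.4 CPM untreated (−0.55 ± 0.25, edgeR adjusted p = 0.433). These groups overlap. EIF2B1 (α, part of the regulatory core that senses phosphorylated eIF2) stood at 53.2, 36.8 and 48.2 CPM in untreated ZNF598 KO, against 69.7, 49.9 and 74.5 CPM in untreated AAVS1 (−0.48 ± 0.23, adjusted p = 0.509). In GCN2 KO it was lower after azaC, at 40.2, 37.8 and 46.2 CPM, than after HF, at 53.2, 59.0 and 61.7 CPM, without overlap, as 8.37% of tested genes were, and without passing (−0.49 ± 0.23, adjusted p = 0.412). In that drug comparison 1.07% of tested genes were called and in RNF25 KO 0.731%, and 0 of 10 members in either.

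EIF2B5 (ε, which catalyses the exchange) stood at 66.0, 83.7 and 64.2 CPM in HF-treated AAVS1 and 85.8, 76.2 and 83.9 CPM in azaC-treated AAVS1, against 77.5, 40.4 and 75.1 CPM in untreated AAVS1. The untreated value of 40.4 CPM was that of replicate 2, a library that stood apart, and its group overlaps both drug groups. EIF2B2 and EIF2B4 (β and δ, the other regulatory chains) ran from 47.4 to 69.5 CPM and from 40.4 to 55.0 CPM in group means. At these counts, 46 to 201 per library for the 5 genes, the 95% intervals of log2 differences between groups reached, over all comparisons, from −1.06 to 0.88. In HF-treated RNF25 KO, where EIF2S2 changed by 0.61, the highest upper limit of the 5 genes was 0.52, and in HF-treated AAVS1, where EIF2S2 changed by 0.67, it was 0.58. The EIF2S2 values have intervals of their own, and differences between EIF2S2 and these genes were not tested. On the opposite strand, DDX55 shares 14.8% of EIF2B1 exon bases and CCNB1IP1P1 10.2% of EIF2B3, and AL049780.3 shares 20.2% of EIF2B2.

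**Figure D5:**
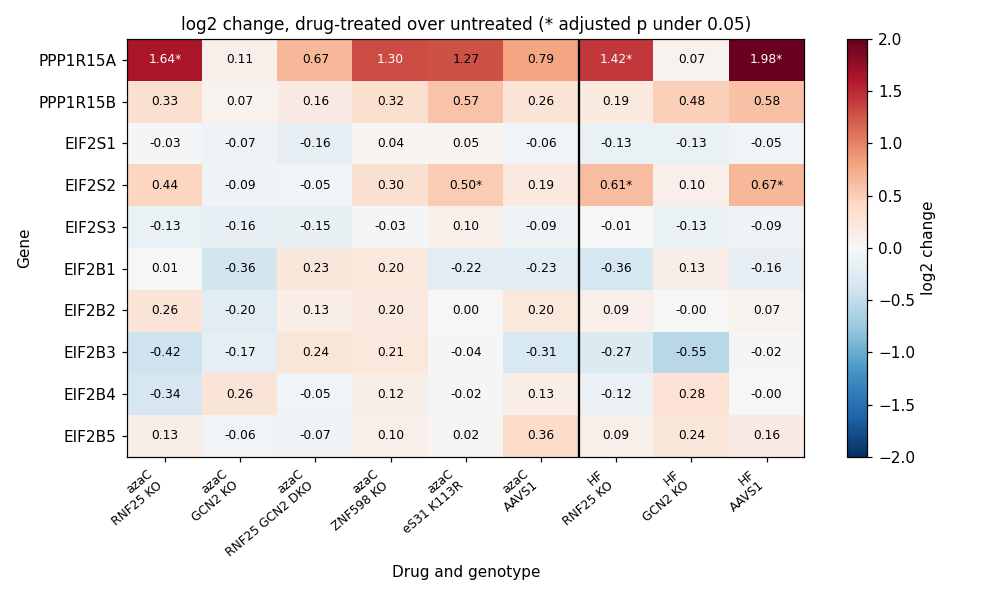
Log2 change of each member, drug-treated over untreated, in 6 lines for azaC and 3 for HF (colour scale from −2 to 2), with an asterisk at an edgeR adjusted p under 0.05. Calls stand only in the PPP1R15A and EIF2S2 lines of the grid, and the eIF2B values lie between −0.55 and 0.36.

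The number of members above 0 was counted in each line, and its differences between lines were not tested. After azaC, 9 of 10 members had a log2 difference above 0 in ZNF598 KO, 7 in eS31 K113R, 6 in RNF25 KO, 6 in AAVS1, 5 in the DKO and 3 in GCN2 KO, and after HF 5 in RNF25 KO, 6 in GCN2 KO and 5 in AAVS1. Among all tested genes the share above 0 was 48.1% to 51.1% in these comparisons. Of the 316 member values not called over all comparisons, 148 changed sign under some alternative, so the counts above 0 are loose. The members' median log2 difference after HF was 0.03 in AAVS1, 0.04 in RNF25 KO and 0.09 in GCN2 KO, beside medians of all tested genes of 0.01, 0.00152 and 0.000654. In HF-treated GCN2 KO 0 of 10 members were called, against 1.24% of tested genes. After azaC the members' median was 0.07 in RNF25 KO, 0.03 in eS31 K113R, 0.20 in ZNF598 KO and 0.16 in AAVS1, with 0 of 10 called in the last 2 lines against 0.117% of tested genes in each. In GCN2 KO and the DKO, where azaC called 0% of tested genes, it was −0.08 and 0.04. Averaged over subunits per kilobase, eIF2 exceeded eIF2B by mean 6.78 ± 0.82-fold in HF-treated RNF25 KO against 4.96 ± 0.48-fold untreated, and 6.67 ± 0.78-fold in HF-treated AAVS1 against 5.44 ± 0.55-fold untreated (SD, n = 3 each). In HF-treated GCN2 KO it was 4.38 ± 0.34-fold against 4.35 ± 0.22-fold untreated. After azaC it was 6.05 ± 0.27-fold in RNF25 KO and 5.11 ± 0.42-fold in eS31 K113R, against 4.96 ± 0.48-fold and 3.87 ± 0.53-fold in the same lines untreated, and 4.83 ± 0.47-fold in the DKO against 5.53 ± 0.56-fold untreated. In azaC-treated AAVS1 it was 5.58 ± 0.21-fold against 5.44 ± 0.55-fold untreated. ZNF598 KO had 4.92 ± 0.32-fold against 5.12 ± 1.14-fold untreated, and GCN2 KO 4.28 ± 0.52-fold against 4.35 ± 0.22-fold untreated. Of the genes in this ratio, EIF2S2 alone was called after a drug.

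Of 12 genes that the integrated stress response induces, 10 rose after HF in AAVS1, 9 in RNF25 KO and 2 in GCN2 KO, with median log2 differences of 3.33, 2.90 and 0.54. Of all tested genes, HF called 1.06%, 1.23% and 0.731% higher in these lines. After azaC 9 of the 12 rose in RNF25 KO, 9 in eS31 K113R, 7 in ZNF598 KO, 7 in AAVS1, and 0 in GCN2 KO and the DKO, with medians of 2.45, 2.74, 1.92, 1.73, 0.31 and 0.05. Of all tested genes, azaC called 0.451% higher in RNF25 KO and 0.469% in eS31 K113R. The share was 0.117% in ZNF598 KO and in AAVS1, and 0% in GCN2 KO and in the DKO. PPP1R15A moved less than the median of these 12 genes in each of the 6 comparisons with a median above 1. The list was chosen with earlier results of these data known. SESN2, a stress-induced regulator of mTORC1, changed by 3.35 ± 0.18 after HF in AAVS1 (edgeR adjusted p = 4.59e-18) and STC2, a secreted glycoprotein, by 3.32 ± 0.25 (adjusted p = 3.77e-13). Both were also among the 5 genes whose group means followed PPP1R15A most closely over the 15 groups, with Pearson r = 0.937 for SESN2, 0.934 for STC2, 0.930 for PCK2, 0.929 for ZBED3 and 0.928 for CARS. For PPP1R15B the closest were UBALD2 (0.893), TXNIP (0.889), TRIM68 (0.866), MIR503HG (0.865) and ARRDC3 (0.852). Among the members the highest correlation was between PPP1R15A and EIF2S2 (0.851) and the lowest between EIF2B3 and EIF2B5 (−0.543). All groups share lines and drugs, and these correlations are descriptions.

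Few other genes of the eIF2 cycle were called. Of 16 partners of eIF2, 1 fell in HF-treated GCN2 KO, against 0.506% of tested genes called lower: EIF5, the GTPase-activating protein of eIF2 (chromosome 14). It stood at 92.8, 97.0 and 95.5 CPM in HF-treated GCN2 KO, against 268, 278 and 219 CPM in untreated GCN2 KO, a log2 change of −1.42 ± 0.14 (edgeR adjusted p = 2.09e-09). In HF-treated AAVS1 it stood at 321, 297 and 291 CPM, against 275, 280 and 246 CPM in untreated AAVS1. The HF responses of GCN2 KO and AAVS1 differed by −1.60 ± 0.19 (adjusted p = 3.97e-07), where 0.334% of tested genes were called. In HF-treated RNF25 KO 1 of the 16 partners rose, against 1.23% of tested genes called higher. It was EIF1, which guards start codon choice (0.48 ± 0.12, edgeR adjusted p = 0.0284), at 805, 809 and 859 CPM against 622, 541 and 614 CPM untreated. In untreated eS31 K113R 2 of 16 fell, against 1.69% of tested genes called lower. They were MCTS1 (−1.05 ± 0.18, edgeR adjusted p = 9.33e-05) and EIF1AX (−1.02 ± 0.22, adjusted p = 0.00211), both on the X chromosome. Both were also lower in azaC-treated eS31 K113R than in azaC-treated AAVS1 (MCTS1 −1.45 ± 0.18, adjusted p = 3.3e-07, and EIF1AX −0.88 ± 0.21, adjusted p = 0.00823), again 2 of 16, against 1.88% of tested genes called lower. Between azaC-treated and untreated cells of the same line, 0 of 16 passed in any line.

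Of 7 eIF2 kinases and GCN2 regulators, EIF2AK4 was lower in untreated GCN2 KO than in AAVS1 (−0.998 ± 0.25, edgeR adjusted p = 0.0277), against 0.343% of tested genes called lower. Of the 7, 0 passed after either drug in any line. Of 13 eIF3 subunits, 11 were tested and 0 passed in any comparison. In HF-treated AAVS1 the medians of these lists were −0.06 for the partners, −0.02 for the kinases and −0.04 for eIF3, beside 0.01 for all tested genes.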

How the data were processed

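The values deposited by the authors are raw counts per gene for 45 libraries of polyA RNA (Maxwell RSC isolation and CORALL mRNA-Seq V2 libraries, per the labels' protocols). Alignment with STAR 2.7.10b and counting with HTSeq 0.9.1 on GRCh38 come from the submitters' processing notes; which annotation, strand setting or molecular identifiers were used is not stated there. Of the per-sample columns 0 were left out. Entries without a symbol (2862) held 0.0286% of the counts. For untreated eS31 K113R replicates 2 and 3, title and genotype label name another protein change, while the described column names eS31 K113R, by which they were placed.

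Counts were fitted in R 4.3.3 with edgeR 4.0.16: filterByExpr at a minimum count of 10 (11078 genes), TMM scaling, a quasi-likelihood model with 15 group means and 30 residual degrees of freedom (common biological coefficient of variation 22.1%), two-sided tests, Benjamini-Hochberg adjustment over all tested genes within a comparison, threshold 0.05. Levels are CPM on TMM-scaled library sizes, with SD over 3 libraries, and intervals are 95%. Of the 33 comparisons, 7 (lines against AAVS1 under the same drug) were added after values were seen. The test was checked on simulated data. Replicates were compared for duplicates, and the closest of 45 within-group pairs differed by a chi-square of 2.9 per degree of freedom, above sampling noise. The labels call the libraries biological replicates without saying how cultures were separated, so p-values measure the spread between these libraries. Correlations use log2 CPM with a prior count of 2.

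The members, the lists and the rule for named genes were chosen with earlier results of these data known. The rule takes all 10 members in every comparison; from each list the counts called and at most 5 called genes by smallest adjusted p; and the 5 genes most correlated with PPP1R15A and with PPP1R15B. Positions come from GENCODE release 29, GC content from the longest transcript of 11069 tested genes, and promoters from RefSeq on GRCh38.p14. Alternatives were DESeq2 1.42.0, limma-voom (limma 3.58.1), DESeq2 size factors, no count filter, a replicate block, only the libraries compared, each library left out, the disputed or apart libraries left out, and, added after seeing the data, EIF2S2 counted with its copies.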

Additional observations from a re-analysis of the deposited data

How the results depend on the processing

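Of the 14 called member values, 0 changed sign under any alternative and 4 stayed called under every one, all of EIF2S3; of the 316 not called, 6 were called under some alternative and 148 changed sign under some. The count of member calls after azaC, 2, was 1 with no count filter, with only the libraries compared, with the first untreated eS31 K113R library alone and without both apart libraries, 4 with the replicate block, and 1 to 2 with single libraries left out. After HF, 4 became 2 with no filter and 1 with only the libraries compared (3 to 4 with libraries left out). Between untreated lines, 2 became 1 with only the libraries compared. For the HF response between genotypes, 0 became 1 in DESeq2. For azaC against HF, 1 became 0 with no filter or only the libraries compared, 2 with the block, and 0 to 1 with libraries left out. Between drug-treated lines, 5 became 3 to 7 with libraries left out. With no filter, EIF2S2 lost its calls after azaC in eS31 K113R (0.50, adjusted p = 1), after HF in AAVS1 (0.67, 0.0524) and RNF25 KO (0.60, 0.134), for azaC against HF in AAVS1 (−0.47, 0.659) and in HF-treated GCN2 KO against AAVS1 (−0.45, 0.401). With only the libraries compared, which leaves fewer samples to estimate the spread, calls were lost for PPP1R15A after HF in AAVS1 (1.98, 0.175), for EIF2S2 after azaC in eS31 K113R (0.51, 0.512), after HF in AAVS1 (0.68, 0.146) and RNF25 KO (0.62, 0.0788), for azaC against HF in AAVS1 (−0.46, 0.184) and in HF-treated GCN2 KO against AAVS1 (−0.46, 0.0779), and for EIF2S3 in untreated GCN2 KO (−0.87, 0.0656). In limma-voom PPP1R15A lost its call after HF in RNF25 KO (1.33, 0.0866), but over all comparisons it had 5 calls there, against 4 in edgeR. PPP1R15A after azaC in RNF25 KO was 1.55 (0.154) without both apart libraries; EIF2S2 after azaC in eS31 K113R was 0.74 (0.077) with the first untreated library alone and 0.51 (0.0531) with its copies. With single libraries left out, PPP1R15A ran from 1.48 to 1.88 after azaC in RNF25 KO, 1.53 to 2.53 after HF in AAVS1, 0.97 to 1.67 after HF in RNF25 KO and −1.74 to −1.08 in HF-treated GCN2 KO against AAVS1; EIF2S2 ran from 0.40 to 0.58 after azaC in eS31 K113R, −0.52 to −0.40 for azaC against HF in AAVS1 and −0.49 to −0.41 in HF-treated GCN2 KO against AAVS1. Except where stated, the cause was not tested. Libraries with the same replicate number deviated together in part: 229 of 315 such pairs correlated above 0.1 (median 0.149, lowest −0.247), and 42 of 45 libraries lay closest to their own number, a hint from the data and not from the design, so the numbers were not taken as pairs. With the replicate block, azaC calls of EIF2S2 in RNF25 KO (0.44, 0.0429) and PPP1R15A in eS31 K113R (1.25, 0.0385) were gained, as was PPP1R15A for azaC against HF in AAVS1 (−1.21, 0.0202), and under azaC PPP1R15A in RNF25 KO (1.19, 0.0149) and eS31 K113R (1.18, 0.0123) against AAVS1; 0 member calls were lost. Depth limits PPP1R15A most, with a median of 30 counts per library and a biological coefficient of variation of 28.8%.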

Other observations

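Some members followed the replicate number across groups. PPP1R15B was highest in the library numbered 2 in 12 of 15 groups, with a median of 64.9 CPM there against 48.8 and 57.3 CPM in libraries numbered 1 and 3. PPP1R15A was highest in the library numbered 1 in 9 of 15 groups (medians 21.5, 17.3 and 16.4 CPM for numbers 1, 2 and 3). EIF2S3 was highest in the library numbered 1 in 11 groups and in the library numbered 2 in 0. The processed copy EIF2S2P4 had a median of 71.7 CPM in libraries numbered 2, against 40.7 and 38.4 CPM in those numbered 1 and 3, and reached 193 CPM in a library numbered 2. What the numbers mark is not given in the sources used here.

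Of the members, PPP1R15A has the most GC-rich transcript, at 58.8% GC, above 84.4% of tested genes, and EIF2S1 the least, at 39.2%. EIF2S2 stands at 45.2% and EIF2S3 at 42.7%.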
